A study of Mus musculus with 9 samples.

Results

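Barx1, Barx2, Pax1, Pax9 and Nkx3-2 are 5 of the 54532 genes in the deposited table of normalized counts from embryonic mouse knees. They are the members of the Barx, Pax1/Pax9 and Nkx3 homeobox and paired box groups taken here, matched from Ensembl identifiers to symbols through GENCODE M21. Barx1 and Pax9 were chosen by their normalized counts, which in an earlier look at the same table were highest in double-positive cells. For these genes every comparison with double-positive cells is therefore a description without a test. Barx2, Pax1 and Nkx3-2 were included by family name and were tested in all comparisons.

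RNA came from knee cells of embryos at stage E14.5, when the knee joint is forming between cartilages. All embryos were heterozygous for both reporter alleles, Creb53XHA-P2A-tdTomato/+; Sox9iresEGFP/+, so every population carried the tagged Creb5 allele. Cells were freed with collagenase and sorted into GFP-only (Sox9 reporter), RFP-only (Creb5 reporter) and double-positive cells. Each population had 3 libraries, from the litters numbered 1, 2 and 5, and the 3 populations of a litter were isolated on the same day. The deposited knee values are labeled as leaving out the litters numbered between 2 and 5. No untreated or reporter-free control was used here.

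Libraries held between 25199258 and 47079305 reads. Reporter host genes followed the sort. Creb5 had 203 ± 68.1 (SD, n = 3) normalized counts in GFP-only, 3044 ± 333 in double-positive and 2959.8 ± 832 in RFP-only cells, and Sox9 had 28910.0 ± 8025, 23473 ± 6622 and 1618 ± 457. RFP-only cells had less of all 8 cartilage markers than either other population (8 of 8 passed in both comparisons). Double-positive cells had less than GFP-only cells of 5 of 8 and more of 0 of 8 (median log2 fold change -1.87). The GFP-only library of litter 5 stood somewhat apart: its correlations with the other GFP-only libraries on the log2 scale included the lowest within any population, 0.908 (highest 0.96).

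Barx1 and Barx2 encode homeodomain proteins of the BarH-like group. Barx1 marks mesenchyme of the jaw, stomach and limb joints, and Barx2 is known from cartilage condensations, muscle and epithelia. Pax1 and Pax9 encode closely related paired-domain factors that act together in the sclerotome, the embryonic source of the vertebrae. Nkx3-2 (also called Bapx1) encodes an NK-class homeodomain repressor that favors chondrocyte formation and holds back Runx2, and in the sclerotome it lies downstream of Pax1 and Pax9 and of hedgehog signals.

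Start-site sequences are shown for the 3 genes whose mean was highest in double-positive cells and which have a window in RefSeq (GRCm38.p6). They are shown with the motif of CREB-type bZIP factors, the class to which Creb5, the RFP reporter's host gene, belongs. Each run is 5′ to 3′ on the gene's strand, ends before any GENCODE exon of the gene (for Pax1 and Pax9 within an intron of longer transcripts), and has in capitals each TGACG, the core of the cyclic AMP response element, on either strand. Barx1 covers chr13:48662786-48662997, which stops short of the RefSeq start site because a GENCODE exon begins upstream of it, Pax1 chr2:147364744-147364993 and Pax9 chr12:56695221-56695470, all on the plus strand.
Barx1: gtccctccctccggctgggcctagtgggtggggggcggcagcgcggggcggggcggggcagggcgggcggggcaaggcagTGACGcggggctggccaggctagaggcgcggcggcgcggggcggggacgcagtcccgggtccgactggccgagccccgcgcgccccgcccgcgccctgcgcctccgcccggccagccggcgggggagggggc
Pax1: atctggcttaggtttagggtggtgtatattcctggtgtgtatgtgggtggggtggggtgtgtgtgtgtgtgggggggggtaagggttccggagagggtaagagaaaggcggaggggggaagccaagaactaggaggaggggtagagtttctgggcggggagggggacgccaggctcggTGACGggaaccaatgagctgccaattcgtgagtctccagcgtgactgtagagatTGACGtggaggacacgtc
Pax9: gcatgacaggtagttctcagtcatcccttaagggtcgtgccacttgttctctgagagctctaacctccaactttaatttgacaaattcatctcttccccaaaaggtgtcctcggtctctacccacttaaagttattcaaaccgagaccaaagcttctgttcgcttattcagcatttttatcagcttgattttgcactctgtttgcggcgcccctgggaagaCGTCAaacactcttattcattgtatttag

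Over the 250 bases upstream of a start site, TGACG occurred on either strand once in Barx1, at 2 places in Pax1, once in Pax9 and at 0 places in Nkx3-2. The Nkx3-2 window lies wholly in a GENCODE exon, so it is transcribed sequence and is not printed, and the Barx1 window includes exonic bases at its end. TGACG occurred in 17.8% of all 32851 RefSeq windows of that length. The full element TGACGTCA (1.55% of windows), the AP-1 motif TGANTCA (6.75%) and the GLI motif GACCACCCA (0.225%) occurred in none of the 4 member windows. TGACG is contained in TGACGTCA, so these searches overlap. The runs differ in composition, with 85.4% G and C in Barx1, 58.8% in Pax1 and 43.6% in Pax9. These matches describe letters and are no evidence of binding.

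Barx1 (ENSMUSG00000021381, chromosome 13, 48662998 to 48666507, plus strand, GRCm38) was the most abundant member in double-positive cells. Its normalized counts were 4797, 2327 and 3108 in the double-positive libraries of litters 1, 2 and 5. They were 309, 246 and 358 in the GFP-only and 117, 78.1 and 159.6 in the RFP-only libraries of the same litters. No value of any population overlapped another, as was so for 28.1% of tested genes between double-positive and GFP-only libraries and for 23.8% between double-positive and RFP-only libraries. Double-positive libraries were highest, GFP-only libraries intermediate and RFP-only libraries lowest.

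The mean Barx1 level in double-positive cells, 3411 ± 1263 (SD, n = 3), was 11.2 times the GFP-only mean of 304 ± 56.2 and 28.9 times the RFP-only mean of 118 ± 40.8. On the log2(value + 1) scale the differences were 3.43 ± 0.35 (SE) and 4.83 ± 0.35, given without a test because they chose the gene. Within litters 1, 2 and 5 the double-positive to GFP-only log2 ratios were 3.95, 3.24 and 3.11. In bulk libraries, fewer expressing cells and less RNA per cell cannot be told apart, here and below.

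The RFP-only against GFP-only comparison was not used to choose Barx1. In it Barx1 was lower in RFP-only cells (log2 fold change -1.40 ± 0.35, limma adjusted p = 0.0166), in 3 of 3 litters, with values that did not overlap. Calls were common in this comparison: 20.3% of 17764 tested genes passed, 8.48% as lower, and 39.4% did not overlap. The Barx1 call was lost without the RFP-only library of litter 2 (-1.14, adjusted p = 0.0656).

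Pax9 (ENSMUSG00000001497, chromosome 12, 56691767 to 56712822, plus strand, GRCm38) was the other member chosen for a peak in double-positive cells. It had 1342, 585 and 605 normalized counts in the double-positive libraries of litters 1, 2 and 5. GFP-only libraries had 12.4, 22 and 63.8, and RFP-only libraries had 116, 77.0 and 77.0. The double-positive values were all above those of the other populations, and the order of the others was the reverse of that for Barx1, with RFP-only above GFP-only libraries. Of all tested genes, 20.9% had RFP-only above GFP-only values without overlap.

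The mean Pax9 level was 844 ± 432 in double-positive cells, 25.8 times that of GFP-only cells (32.7 ± 27.3) and 9.38 times that of RFP-only cells (89.9 ± 22.4). The log2 differences, again without a test, were 4.85 ± 0.58 and 3.13 ± 0.58. The double-positive library of litter 1 held the highest value of both Barx1 and Pax9, and without it the Pax9 difference from RFP-only cells was 2.74.

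Between RFP-only and GFP-only cells, where Pax9 could be tested, the difference of 1.72 ± 0.58 did not pass (limma adjusted p = 0.0573). Ratios within litters 1, 2 and 5 ran from 3.12 through 1.76 to 0.27 on the log2 scale. Without the GFP-only library of litter 5, the highest of its population for Pax9, the difference was 2.34 ± 0.47 (adjusted p = 0.00727), and DESeq2 on recovered reads gave 1.47 (adjusted p = 0.0426). The other 17 of 19 alternatives did not pass. Thus Barx1 and Pax9 stood in opposite directions in this comparison (-1.40 and 1.72), and a test of that contrast was not made.

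**Figure D1:**
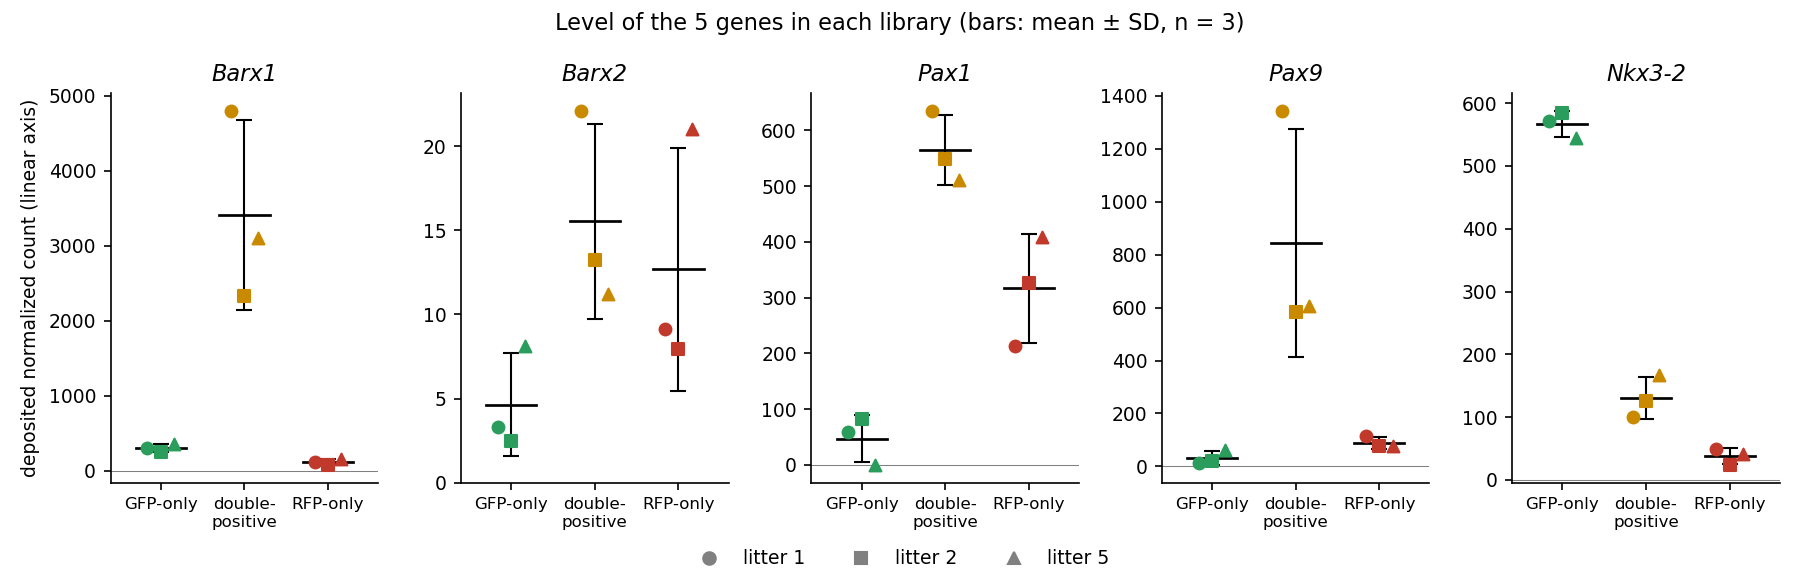
Deposited normalized count (linear axis, scale differs by gene) of each of the 5 genes in every library, with color for the sorted population, marker shape for the litter and bars for mean ± SD (n = 3). Barx1 and Pax9 are highest in double-positive cells, Pax1 is high in double-positive and RFP-only cells with 0 in the GFP-only library of litter 5, and Nkx3-2 is highest in GFP-only cells.

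Pax1 (ENSMUSG00000037034, chromosome 2, 147361925 to 147393295, plus strand, GRCm38) was high in both populations with the Creb5 reporter. Its values were 634, 548 and 511 in double-positive libraries of litters 1, 2 and 5 and 214, 326 and 409 in RFP-only libraries. GFP-only libraries had 58.7, 82.0 and 0, the last with 0 reads, where 3 reads would be 4.07 normalized counts. All GFP-only values lay below all RFP-only values, which in turn lay below all double-positive values. Of all tested genes, 20.9% had RFP-only above GFP-only values and 14.3% double-positive above GFP-only values without overlap. Double-positive values lay above RFP-only values for 11.2%.

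Pax1 rose in double-positive against GFP-only cells from a mean of 46.9 ± 42.3 to 564 ± 63.3, a log2 fold change of 5.05 ± 1.28 (limma adjusted p = 0.0343). In this comparison 8.29% of tested genes passed and 5.27% passed as higher. In RFP-only cells, with a mean of 316 ± 97.7, Pax1 was also higher than in GFP-only cells (4.17 ± 1.28, adjusted p = 0.0401, where 11.8% of genes passed as higher). The library with 0 reads set these sizes: without it the differences were 3.00 ± 0.33 (adjusted p = 0.00119) and 2.12 ± 0.33 (adjusted p = 0.00217).

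Both Pax1 calls were lost without any 1 of the double-positive or RFP-only libraries (adjusted p up to 0.106 and 0.119). They were also lost with a pseudocount of 0.5, with no filter or with 2 populations in the fit, and the second with edgeR (adjusted p = 0.0527). Its direction held in all alternatives. From RFP-only to double-positive cells the Pax1 difference of 0.88 ± 1.28 did not pass (adjusted p = 0.922). The pooled SE is large because of the 0: with only those 2 populations in the fit it was 0.88 ± 0.28 (adjusted p = 0.123), and the ratios within litters 1, 2 and 5 were 1.56, 0.75 and 0.32.

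Nkx3-2 (ENSMUSG00000049691, chromosome 5, 41761483 to 41764501, minus strand, GRCm38) had the reverse order of Pax1 between GFP-only and RFP-only cells. Its GFP-only values were 572, 584 and 544 in litters 1, 2 and 5, the closest agreement of any member in any population (coefficient of variation 3.61%). Double-positive libraries had 99.9, 126 and 167, and RFP-only libraries had 48.8, 23.8 and 42.0. The 3 populations did not overlap and formed a descending series from GFP-only through double-positive to RFP-only cells. Of all tested genes, 13.8% had double-positive below GFP-only values and 18.5% RFP-only below GFP-only values without overlap. Double-positive values lay above RFP-only values for 11.2%.

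From the GFP-only mean of 567 ± 20.5, Nkx3-2 fell by 2.14 ± 0.38 on the log2 scale in double-positive cells (mean 131 ± 33.7, limma adjusted p = 0.00749). In this comparison 3.02% of genes passed as lower. It fell by 3.92 ± 0.38 in RFP-only cells (mean 38.2 ± 12.9, adjusted p = 6.8e-05). Both calls held in all 19 alternatives, with changes of -2.32 to -1.96 and of -4.12 to -3.62.

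Nkx3-2 also exceeded its RFP-only level in double-positive cells (1.78 ± 0.38, limma adjusted p = 0.0335), in 3 of 3 litters. In this comparison 2.85% of genes passed, 1.8% as higher and 1.05% as lower. This call was lost in 7 of 9 fits that left out a library, namely any 1 double-positive or RFP-only library or the GFP-only library of litter 1 (1.48 to 1.98, adjusted p up to 0.137). It was lost as well with no filter and with 2 populations in the fit (adjusted p up to 0.0584).

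Barx2 (ENSMUSG00000032033, chromosome 9, 31846044 to 31913462, minus strand, GRCm38) was barely expressed. Its normalized counts were 22.1, 13.3 and 11.2 in double-positive, 3.31, 2.45 and 8.14 in GFP-only and 9.14, 7.93 and 21 in RFP-only libraries of litters 1, 2 and 5. These rest on 55, 12 and 34 reads per population, and the mean of 10.9 over all libraries lies just above the minimum of 10 for testing. Double-positive values lay above GFP-only values, as for 14.3% of tested genes, and RFP-only values overlapped both.

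No Barx2 difference passed. They were 1.63 ± 0.81 for double-positive against GFP-only (limma adjusted p = 0.24), 1.29 ± 0.81 for RFP-only against GFP-only (adjusted p = 0.283) and 0.34 ± 0.81 for double-positive against RFP-only cells (adjusted p = 0.965). At this depth a difference of the size seen for Barx2 could not be told from the spread between libraries. Its mean, like that of its paralog Barx1, was highest in double-positive cells, where Barx1 had 12135 reads.

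**Figure D2:**
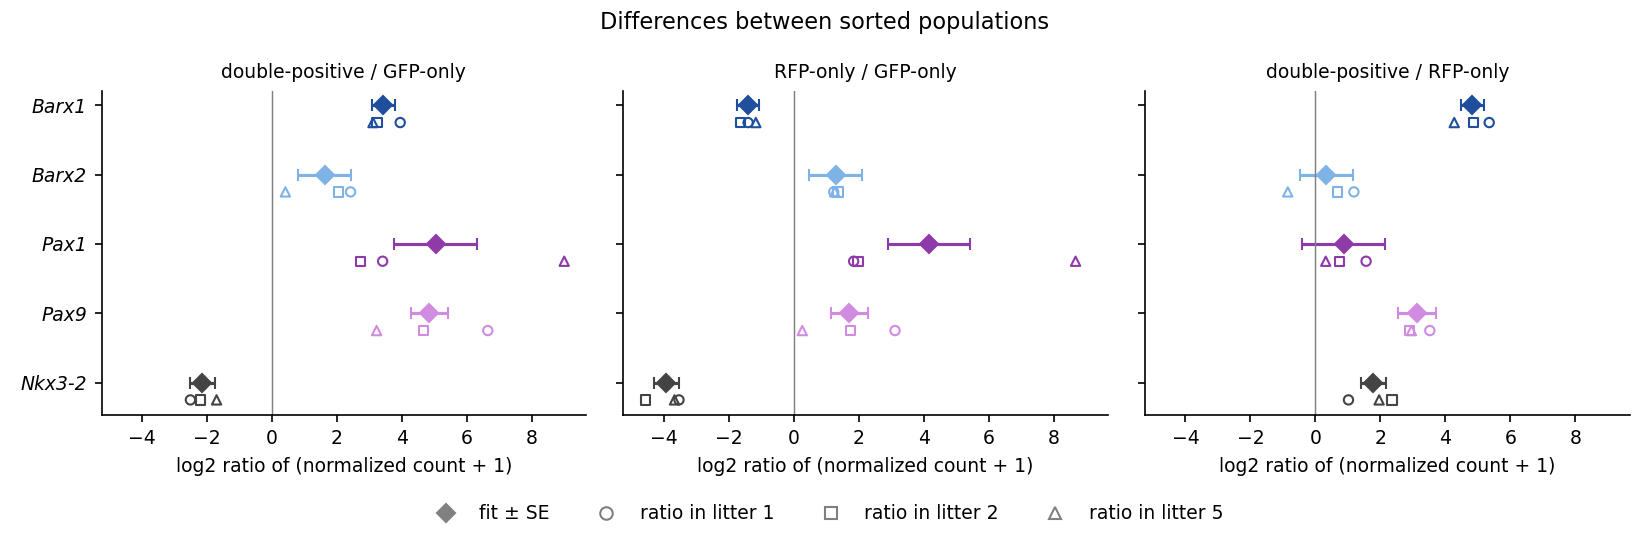
Log2 differences of (normalized count + 1) for the 5 genes in the 3 comparisons, with diamonds for the limma estimate ± SE over 9 libraries and open markers for the ratio within each litter. Nkx3-2 lies left of 0 in both comparisons with GFP-only cells, while Pax1 lies right of 0 with litter 5 far from the other litters (9.0 and 8.68).

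Genes were compared with each other as normalized counts per kilobase of exon (the union of GENCODE M21 exons), since longer transcripts collect more reads. In double-positive cells Barx1 stood at 2438 ± 902 per kilobase (SD, n = 3), above Pax9 at 167 ± 85.4, Pax1 at 126 ± 14.1, Nkx3-2 at 76.2 ± 19.6 and Barx2 at 7.89 ± 2.94. Pax9 and Pax1 overlapped there. In GFP-only cells Nkx3-2 led with 330 ± 11.9 per kilobase, followed by Barx1 with 218 ± 40.2, Pax1 with 10.4 ± 9.41, Pax9 with 6.47 ± 5.40 and Barx2 with 2.35 ± 1.56.

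In RFP-only cells Barx1 (84.4 ± 29.1 per kilobase) and Pax1 (70.4 ± 21.8) overlapped, as did Nkx3-2 (22.2 ± 7.52) and Pax9 (17.8 ± 4.43), and Barx2 had 6.45 ± 3.67. The order of the members thus differed between populations. The Barx1 to Nkx3-2 ratio per kilobase was 0.664, 0.517 and 0.808 in GFP-only libraries of litters 1, 2 and 5. It was 59.0, 22.6 and 22.9 in double-positive and 2.94, 4.03 and 4.67 in RFP-only libraries, without overlap. Barx1 was chosen for its peak in double-positive cells, which by itself raises this ratio there, so the ratio is a description.

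Pax9 was chosen for its peak in double-positive cells, which by itself lowers a Pax1 to Pax9 ratio there. This ratio per kilobase is therefore a description. It was 0.532, 1.06 and 0.95 in double-positive libraries of litters 1, 2 and 5 and 2.08, 4.77 and 5.98 in RFP-only libraries. In GFP-only libraries it was 5.33, 4.19 and 0. The double-positive ratios were below all RFP-only ratios, so that Pax9 reached the level of Pax1 in double-positive cells and stayed below it in RFP-only cells.

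**Figure D3:**
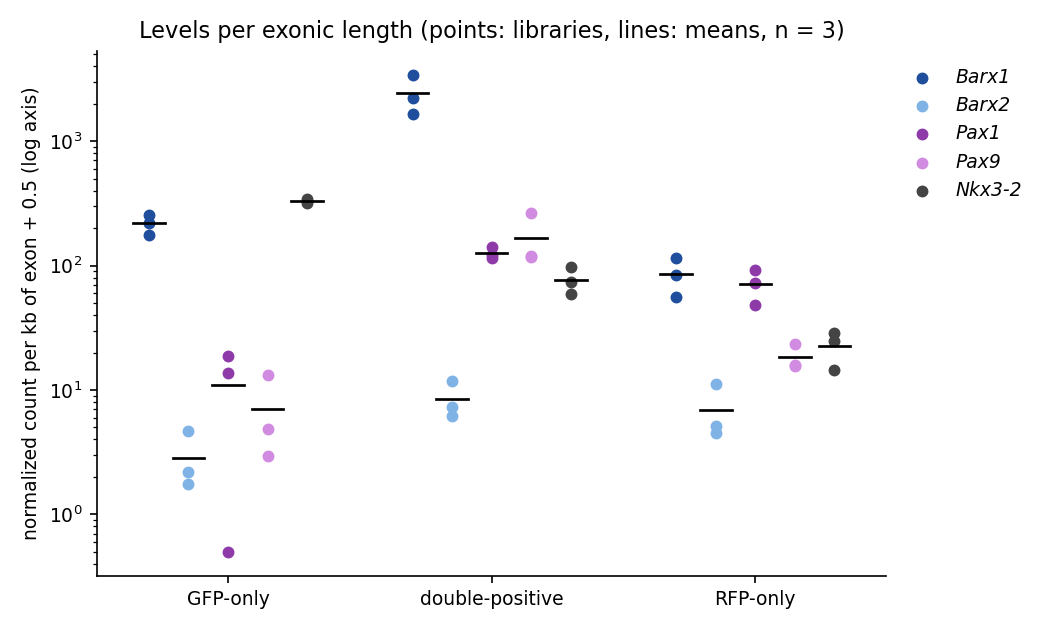
Normalized count per kilobase of exon plus 0.5 (log axis) for the 5 genes in the 3 populations, with points for libraries and lines for means (n = 3). Barx1 leads in double-positive cells at 2438, Nkx3-2 leads in GFP-only cells at 330, and the lowest Pax1 point is the GFP-only library with 0 reads.

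Transcripts that overlap members on the other strand matter because the sources used here do not give the strand setting of the counting. No annotated gene overlaps Barx1 or Nkx3-2. The antisense gene AI646519 at Pax1 had means of 4.97, 43.8 and 10.3 normalized counts in GFP-only, double-positive and RFP-only cells. At Pax9 the antisense gene Gm15524 had 0, 10.2 and 0.467, and Slc25a21, a mitochondrial carrier gene on the other strand, had 10.4, 33.3 and 1.52. All 3 had their highest mean in double-positive cells, far below the Pax1 and Pax9 values there, and reads of the strands cannot be told apart. Gm31497, opposite Barx2, had 0, 0.32 and 0.

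The nearest protein-coding genes were read for the same populations. Beside Barx1, Ptpdc1 had means of 672, 933 and 1334 and Phf2 had 535, 839 and 949.1 in GFP-only, double-positive and RFP-only cells. Neither had a peak in double-positive cells. Both passed as higher in RFP-only against GFP-only cells, the direction opposite to Barx1. The differences were 1.10 ± 0.34 for Ptpdc1 (limma adjusted p = 0.0399) and 0.82 ± 0.24 for Phf2 (limma adjusted p = 0.0357). Foxa2, a forkhead factor gene 649.6 kilobases from Pax1, ran against it, with 295 ± 52.8, 29.8 ± 36.9 and 0 normalized counts. Its loss in RFP-only against GFP-only cells passed (limma adjusted p = 0.000236). Nkx2-2, on the other side of Pax1, was nearly silent (0, 1.28 and 1.89), as was Nkx2-9 beside Pax9 (4.07, 0 and 1.77).

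Beside Nkx3-2, Rab28 fell in RFP-only against GFP-only libraries (3132 ± 119 against 6147 ± 1377, -0.95 ± 0.20, limma adjusted p = 0.0065), a smaller change in the direction of Nkx3-2. Bod1l, on its other side, had 1818 ± 433, 1989 ± 363 and 1801 ± 118 in GFP-only, double-positive and RFP-only cells and passed in no comparison. Prps1l3, beside Pax9, and Arhgap32, beside Barx2, passed in none either.

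Relatives of the members were scarce in these cells. Of 21 other NK, paired box and BarH genes, 5 had a mean of at least 10 and were tested. Double-positive against GFP-only cells gave 0 higher and 1 lower, RFP-only against GFP-only cells gave 2 higher and 2 lower, and double-positive against RFP-only cells gave 1 higher and 0 lower.

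Among those relatives, Nkx6-2 fell in RFP-only against GFP-only libraries (1.99 ± 2.34 against 273 ± 235, limma adjusted p = 0.00312). Its paralog Nkx6-1 was read in all GFP-only and double-positive libraries (20.6 ± 11 and 28.5 ± 7.75) and had 0 in all RFP-only libraries (adjusted p = 0.00366 against GFP-only libraries). The single calls with double-positive cells, Nkx6-2 lower and Nkx6-1 higher, were lost without double-positive litter 2 or GFP-only litter 5 and without double-positive litter 1, respectively (adjusted p up to 0.0647 and 0.0577). Pax7 and Pax3, paired box genes of muscle precursors, rose in RFP-only against GFP-only libraries (4.83 ± 1.24, adjusted p = 0.0186, and 3.81 ± 1.17, adjusted p = 0.0412). The Pax7 call was lost with edgeR or without GFP-only litter 1, RFP-only litter 2 or RFP-only litter 5 (adjusted p up to 0.0765), and that of Pax3 was lost in 11 of 18 alternatives, among them all RFP-only libraries left out in turn (adjusted p up to 0.161).

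In the same comparison all 9 skeletal muscle markers, Pax7 among them, were higher in RFP-only cells. Their summed level was 595 to 1604 normalized counts in GFP-only, 1041 to 3111 in double-positive and 8772 to 32901 in RFP-only libraries, and no marker was at 0 in a population. RFP-only cells also had more of 5 of 7 endothelial, 5 of 6 tendon, 4 of 8 macrophage and leukocyte, 5 of 8 joint interzone, 2 of 6 Schwann and neuronal, 1 of 6 erythroid and 1 of 7 epidermal markers than GFP-only cells, the comparison in which Pax1 was higher. Lower in RFP-only cells were 2 of 8 joint interzone, 2 of 6 Schwann and neuronal and 1 of 7 epidermal markers. Summed endothelial markers were 417 to 1069 in GFP-only and 3906 to 4903 in RFP-only libraries. Summed tendon markers were 5497 to 11755 and 21338 to 26852 in the same order. The part of these cell types in the Pax1 and Barx2 levels was not tested. Double-positive cells had more of 5 of 8 macrophage and leukocyte markers than GFP-only cells, with sums of 102 to 365 in GFP-only, 1724 to 11496 in double-positive and 1067 to 3346 in RFP-only libraries. Their part in the double-positive levels of the members was not tested. Of 7 epidermal markers, 0 passed between double-positive and either other population.

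Hedgehog signals act upstream of Pax1, Pax9 and Nkx3-2 in the sclerotome. Against GFP-only cells, 4 of 13 tested hedgehog pathway genes rose and 1 fell in double-positive cells, while 2 rose and 2 fell in RFP-only cells. Between double-positive and RFP-only cells 2 were higher and 0 lower in the former. The median log2 fold changes were 0.64, 0.69 and 0.07, beside medians of 0.04, 0.05 and -0.01 over all tested genes. The counts moved with single libraries: the 4 became 2 without any 1 double-positive library, the 2 higher in RFP-only cells became 5 without GFP-only litter 1, and the last count was 0 without RFP-only litter 1 or 5 and 4 without GFP-only litter 5. Of all tested genes, 5.27% passed as higher and 3.02% as lower in the first comparison. The shares were 11.8% and 8.48% in the second and 1.8% and 1.05% in the last. They also stand beside the counts of the other gene lists and markers.

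The co-receptor genes Gas1 and Cdon and the ligand gene Ihh went apart within the pathway. Gas1, a co-receptor gene, was higher in double-positive (34108 ± 8718) and RFP-only cells (32221 ± 1751) than in GFP-only libraries (2124 ± 587), with limma adjusted p of 6.91e-05 and 6.36e-06. Cdon, another co-receptor gene, was higher by 2.90 ± 0.25 and 2.96 ± 0.25. Boc, the remaining co-receptor gene, was higher in double-positive cells (1.74 ± 0.42, limma adjusted p = 0.0267), a call lost in 5 of 19 alternatives, including those without any 1 double-positive library, and it did not pass in RFP-only cells (0.95 ± 0.42, adjusted p = 0.129). Ihh, the ligand gene of maturing chondrocytes, was lower by the same tests (-5.97 ± 0.55 and -9.07 ± 0.55), and Ptch1, a receptor and target gene, was lower in RFP-only cells (-2.46 ± 0.32, adjusted p = 0.000383). Shh had 0 to 2.79 normalized counts on average. Ihh and Ptch1 thus had the population order of Nkx3-2, and Gas1 and Cdon were high where Pax1 was high.

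Among 17 tested partner transcription factors of skeletal mesenchyme, 4 rose and 1 fell from GFP-only to double-positive cells. In RFP-only against GFP-only cells 7 were higher and 8 lower, and in double-positive against RFP-only cells 5 were higher and 1 lower. The 7 became 4 without RFP-only litter 1 or 2, and leaving out other libraries gave 5 or 6 higher and 8 or 9 lower genes. The 1 that fell in double-positive cells became 2 without GFP-only litter 5 or double-positive litter 5. The 1 lower than in RFP-only cells, Twist1, was lost without any RFP-only library or without double-positive litter 1 or 5, and 2 were lower without GFP-only litter 5 or double-positive litter 2. The median log2 fold changes were 0.10, -2.44 and 0.48.

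Meox1 and Meox2, homeobox genes of the somite that regulate Nkx3-2 there, were higher in both populations with the Creb5 reporter. Meox1 had 244 ± 127, 1317 ± 572 and 1547 ± 229 normalized counts in GFP-only, double-positive and RFP-only cells (2.52 ± 0.45, adjusted p = 0.00688, and 2.83 ± 0.45, adjusted p = 0.00125, limma). Meox2 rose by 1.5 ± 0.22 and 2.34 ± 0.22. Tbx18, a T-box gene of somite and limb mesenchyme, rose by 2.61 ± 0.24 and 2.27 ± 0.24. These directions are those of Pax1 and opposite to Nkx3-2.

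Sox5, the partner of Sox9 in cartilage, was kept in double-positive cells and low in RFP-only cells. It had 4628 ± 1019.9 normalized counts in GFP-only, 3288 ± 1196 in double-positive and 127 ± 26.1 in RFP-only cells (double-positive against RFP-only 4.63 ± 0.31, limma adjusted p = 5.04e-05). Runx2, the osteoblast and hypertrophy factor that Nkx3-2 is known to repress, went from 3893 ± 670 in GFP-only to 451 ± 163 in double-positive and 360.4 ± 124 in RFP-only cells. Against GFP-only cells these were changes of -3.15 ± 0.32 and -3.47 ± 0.32 on the log2 scale (limma adjusted p = 0.000379 and 4.12e-05). Runx2 and Nkx3-2 were therefore both highest in GFP-only cells, and whether they share cells was not measured.

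Among 14 genes described in other tissues as regulated by the members, 4 rose and 4 fell from GFP-only to double-positive cells, and the 4 that fell became 2 without GFP-only litter 2, double-positive litter 1 or double-positive litter 2. In RFP-only against GFP-only cells 5 were higher and 8 lower, and in double-positive against RFP-only cells 5 were higher and 0 lower, with median log2 fold changes of -0.23, -2.19 and 1.22. Msx1, Sox9 and Runx2 are also in the list of partners.

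Sfrp2, a secreted Wnt modulator gene that Barx1 raises in stomach mesenchyme, had 4325 ± 531 normalized counts in GFP-only, 52162 ± 18918 in double-positive and 27908 ± 2215 in RFP-only cells. It was higher than in GFP-only cells by 3.52 ± 0.27 and 2.69 ± 0.27 (limma adjusted p = 0.000104 and 8.14e-05). Unlike Barx1, it was high in RFP-only cells too, and it did not pass between double-positive and RFP-only cells (0.83 ± 0.27, adjusted p = 0.16). Sfrp1, its relative in the same tissue, had 6119, 5394 and 3029 in the same order and passed between RFP-only and GFP-only cells alone (limma adjusted p = 0.024).

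Gdf5 and Gdf6, BMP-family ligand genes of joints, differed from each other. Gdf5 in double-positive cells exceeded its RFP-only level (4.60 ± 0.58, limma adjusted p = 0.00159) and its GFP-only level (3.11 ± 0.58, limma adjusted p = 0.00908). Barx1 had the same directions, given without a test. Between RFP-only and GFP-only cells Gdf5 did not pass (-1.48 ± 0.58, limma adjusted p = 0.0958), whereas Barx1 did. Gdf6 was higher in both double-positive (152 ± 84.2) and RFP-only cells (212 ± 102) than in GFP-only libraries (6.95 ± 5.55, limma adjusted p = 0.00404 and 0.000675), as Pax1 was. Dlx5, a homeobox gene of maturing cartilage, descended like Nkx3-2, from 4346 ± 651 in GFP-only through 536 ± 102 in double-positive to 176 ± 33.5 in RFP-only cells, and passed in all 3 comparisons and in all alternatives.

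**Figure D4:**
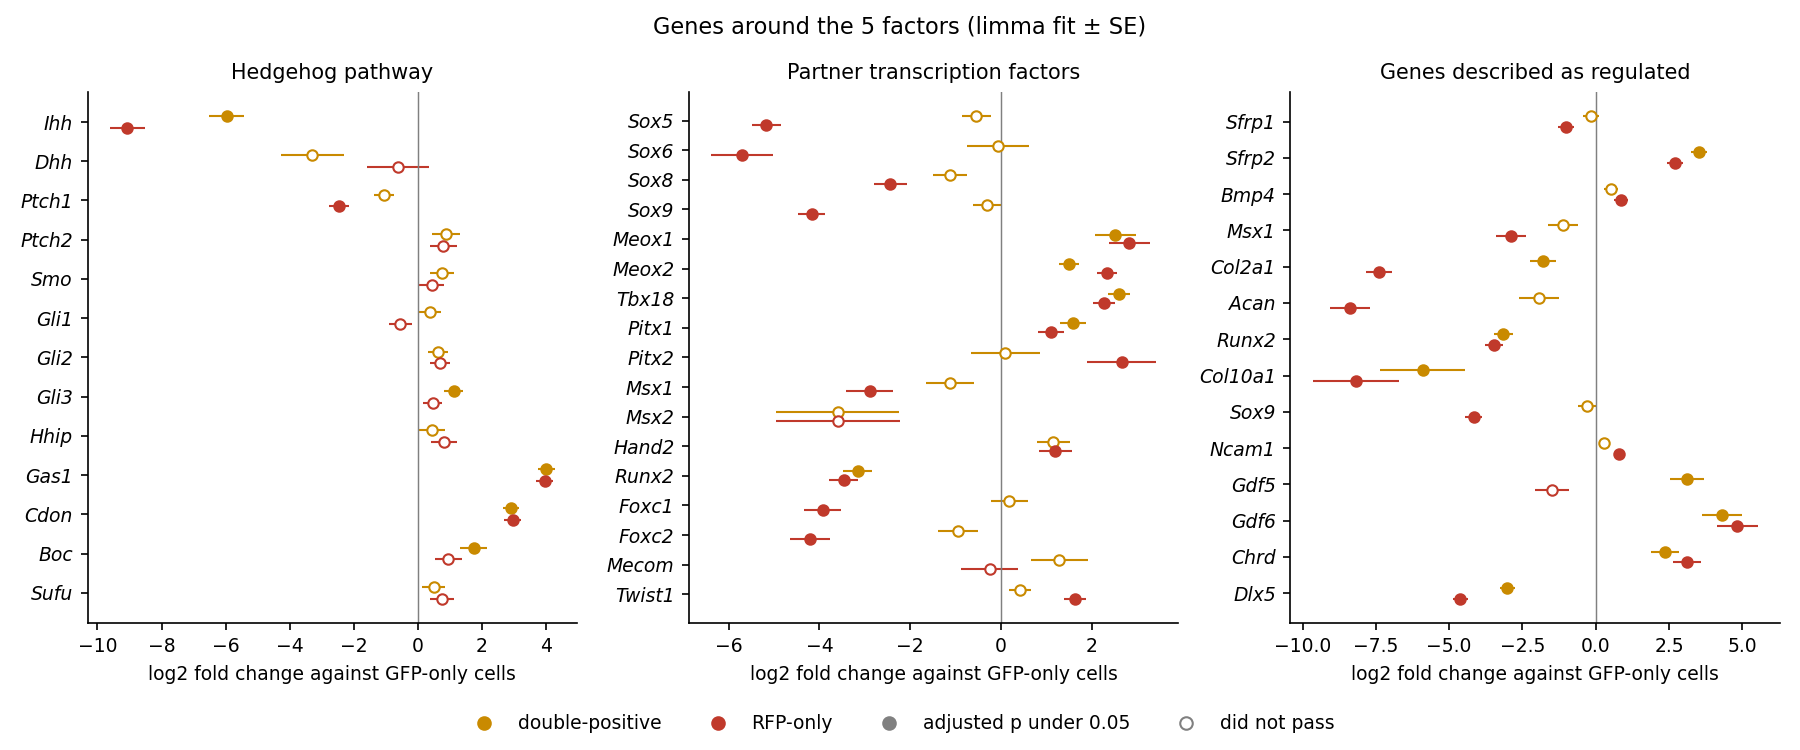
Log2 fold change ± SE against GFP-only cells for tested genes of the hedgehog pathway, partner transcription factors and genes described as regulated by the members, in double-positive and RFP-only cells, with filled points for an adjusted p under 0.05 (limma). Gas1 and Cdon lie right of 0 and Ihh left of 0 in both populations, while Sox5 and Sox9 lie far left in RFP-only cells only.

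Likeness of pattern was measured by Pearson's r over the 9 libraries on the log2 scale, among 11818 protein-coding genes with a mean of at least 100. The libraries share populations and litters, so r describes the profile and carries no test. Elk3, an ETS-family repressor gene (r = 0.971), Gdf5 (0.966) and Pthlh, which encodes the parathyroid hormone-related protein (0.966), were most like Barx1, followed by Tgfbi (0.957) and Glcci1 (0.952). Gdf5 and Barx1 shared the highest library, double-positive of litter 1, where Gdf5 had 16771 normalized counts. They parted in litter 5, where Gdf5 had the lowest of its double-positive values (5235) and Barx1 did not.

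Rrad (r = 0.981), Selenbp1 (0.977), Gcgr, the glucagon receptor gene (0.971), Spint2, a protease inhibitor gene (0.956), and Zfp454 (0.949) were most like Pax9. Spint2 had 3225 in the double-positive library of litter 1 against 1716 and 1270 in litters 2 and 5. Thbd, which encodes thrombomodulin (0.993), Adamtsl2 (0.991), Nck2 (0.987), Tbx15 (0.984) and Ltbp1, a latent TGF-beta binding protein gene (0.984), were most like Pax1. These genes had their lowest value in the GFP-only library of litter 5 as well, at 32.6 for Thbd and 2.71 for Adamtsl2. Without that library r fell to 0.957 for Thbd and 0.92 for Ltbp1.

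Arl10 (r = 0.982), Scin, an actin-severing protein gene (0.982), Tmx1 (0.981), Nim1k (0.981) and Tmc6 (0.98) were most like Nkx3-2. Scin went from a mean of 9817 in GFP-only through 833 in double-positive to 82.2 normalized counts in RFP-only cells. For Barx2, with its few reads, Slc25a30 (0.966), Chrdl2 (0.946), Ckap2 (0.935), Chek1 (0.912) and Ociad2 (0.912) came first. Among the members, Barx1 and Pax9 had r = 0.776, Pax1 and Pax9 0.508, Barx1 and Pax1 0.279, and Pax1 and Nkx3-2 -0.63. Barx1 and Pax9 were both chosen for a peak in double-positive cells, which by itself raises their r. With the sort genes, Nkx3-2 had 0.857 with Sox9 and -0.84 with Creb5.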

How the data were processed

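Polyadenylated RNA of sorted knee cells was sequenced as Nextera XT libraries, per the labels' protocols. FastQC, STAR, Salmon, DESeq2 and mm10 stand in the submitters' processing notes without versions or roles; the gene models and strand setting are not given in the sources used here. The deposited values are a signal, normalized counts for each gene. Divided by the smallest positive value of their library, 100% came out whole within 0.001, and these quotients were taken as reads, which may be rounded estimates.

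Samples were grouped by the sorted population in their labels. Of the identifiers, 54495 matched GENCODE M21 (GRCm38) and 37 did not. Two-sided tests used limma 3.58.1 (R 4.3.3, trend fitted) on log2(value + 1), which understates changes of low genes. All 9 libraries entered 1 fit, genes needed a mean of at least 10 (17764 genes), and p was adjusted by Benjamini and Hochberg over all of them, with calls under 0.05. The script was tested on simulated data. The members, gene lists and tests were chosen with earlier results of these data known.

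Named genes were the members, their 5 most correlated genes, nearest coding neighbors and, from each list, up to 3 passing genes a direction plus others needed for background. Lists held relatives, hedgehog genes, partners, described targets, and markers of cartilage, joint interzone, muscle, leukocytes, endothelium, epidermis, Schwann cells, tendon and erythroid cells. From GFP-only to double-positive cells, 5 of 8 interzone, 2 of 7 endothelial, 5 of 6 tendon and 1 of 9 muscle markers rose. No rise was called for 0 of 6 Schwann and neuronal, 0 of 6 erythroid and 0 of 8 cartilage markers. In that comparison 1 of 8 interzone, 1 of 6 Schwann and neuronal and 5 of 8 cartilage markers fell. Promoters came from RefSeq (GRCm38.p6), where 4 of the 5 members matched.

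Replicates came from separate litters, and replicate pairs differed beyond counting noise (lowest chi-square over its degrees of freedom 46.6). The labels give a shared litter, so numbers pair the libraries. Deviations from population means correlated with a median of 0.103 over 9 pairs of 1 litter (-0.04 to 0.149) and -0.04 over 18 pairs of different litters. Alternatives changed the pseudocount, filter, scaling, samples, litter block and test, or left out single libraries. On recovered reads edgeR 4.0.16 called 1236, 3191 and 411 genes for double-positive to GFP-only, for RFP-only to GFP-only and for double-positive to RFP-only cells; DESeq2 1.42.0 was also run.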

Additional observations from a re-analysis of the deposited data

How the results depend on the processing

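Over 282 recomputed values of the 5 members, none changed direction; 29 calls were lost, 2 were gained and 1 untested value moved by more than its spread, as given beside the results. Counts of called genes were 1472, 3601 and 506 for double-positive to GFP-only, for RFP-only to GFP-only and for double-positive to RFP-only cells. Leaving out single libraries gave 637 to 1553, 2190 to 3716 and 217 to 1050.0 calls. With 2 populations in the fit the first and last counts were 697 and 1008, and with DESeq2 they were 2780.0 and 1152; the cause was not tested. In the last comparison the share of calls that were higher was 63% in the main analysis and 46.7% with 2 populations in the fit. With litter as a replicate block the counts were 1616, 3673 and 558, and the block changed no call of the 5 members. Barx2 had too low a mean to be tested with a minimum mean of 50. Depth limits Barx2 most, with 12 reads in GFP-only cells.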
